A study of Brassica juncea with 18 samples.

Results

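The comparison described here sets the untreated siliques of *B. juncea* var. Varuna at 30 days after pollination (DAP) against those at 20 and 25 DAP. It rests on 3 of the 18 RNA-seq libraries of the series, namely the control libraries of 20, 25 and 30 DAP, chosen by their labels. The plants were field grown and self-pollinated by hand, and the control branches were excised and stood in water in the field before whole siliques were taken. By the anatomy given with the study, the embryo was heart shaped at 20 DAP, at the torpedo stage at 25 DAP and a cotyledonary immature embryo at 30 DAP. Other branches of these stages, moved to 4 °C under light and sampled after 6 h or 12 h, gave 6 further libraries, and these are used below as libraries in which the same step between stages can be read again. Each stage and duration had 1 library, so the difference between untreated libraries has no test, and the gap between the 20 and 25 DAP controls is the only measure of spread beside it. The study collected the controls of every stage within 1 day, and no source used here states the hour.

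A silique holds the seeds inside a pod wall, and each seed holds an embryo, an endosperm and a seed coat that comes from the mother plant. In seeds of the cabbage family the embryo first lays down its body plan and then fills. During filling, master regulators such as LEC1, FUS3, ABI3 and WRI1 act ahead of the genes for the napin and cruciferin storage proteins, for the enzymes of oil synthesis and for the oleosins that coat the oil bodies. LEA proteins and other desiccation genes usually follow later. Over the same days the endosperm is used up, the seed coat gathers tannins and thickened walls, and the growth of the pod wall comes to an end.

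Levels are given in FPKM (fragments mapped, scaled for transcript length and for the library's total), with TMM scaling by the authors, for 13342 transcripts of 9446 unigenes. Only transcripts with a call in some pairwise comparison of libraries by the authors are in this table. Differences are those of log2(FPKM + 1), at 30 DAP minus the mean of 20 and 25 DAP, so a difference of 2 is a 4-fold change, and the added 1 makes changes of weak transcripts look smaller. The number of transcripts above 0 was 12462 at 20 DAP, 11979 at 25 DAP and 11484 at 30 DAP. Read depth is not part of the deposited table. By the study's account of its reads, the 20 DAP control was the deepest of the 3 and belonged to the libraries that kept a larger share of their reads in filtering, while the 25 and 30 DAP controls belonged to the others, so this difference in read quality and the step from 20 DAP cannot be told apart. Actin 7, a common reference gene, was measured by 2 isoforms. The first (c51347_g2_i1) was at 8.72, 1.96 and 6.96 FPKM and the second (c51347_g2_i2) at 13.03, 2.83 and 9.06 FPKM at 20, 25 and 30 DAP, so both were lowest at 25 DAP.

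The 30 DAP library stood well apart from both earlier libraries. At least 4-fold higher at 30 DAP were 614 transcripts of 493 unigenes, which is 4.60% of the table, and at least 4-fold lower were 544 transcripts of 452 unigenes, 4.08% of the table. Of the higher transcripts 612 lay above both earlier controls, and all 544 lower transcripts lay below both. At least 4-fold from each of the earlier controls taken alone were 433 transcripts above and 407 below. The gap between the 20 and 25 DAP controls was smaller, with 233 transcripts at least 4-fold higher at 25 DAP (1.75%) and 15 at least 4-fold lower (0.112%). The median absolute difference was 0.27 between 20 and 25 DAP, 0.53 between 25 and 30 DAP and 0.56 between 20 and 30 DAP, on the log2 scale. The median difference over all transcripts was -0.01. Among the higher transcripts the value nearest the threshold was 2.002, and the nearest one left out was 1.999.

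**Figure D1:**
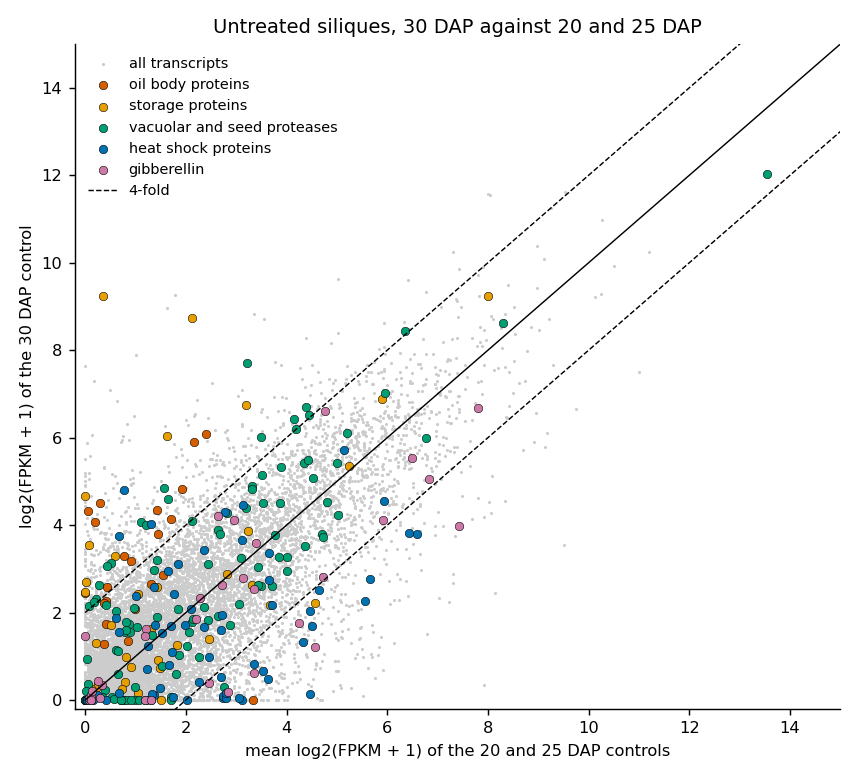
Each point is 1 transcript, with the mean log2(FPKM + 1) of the 20 and 25 DAP controls on the x axis and log2(FPKM + 1) of the 30 DAP control on the y axis, both log scales. Dashed lines mark 4-fold, coloured points are 5 of the gene lists, and oil body proteins lie mostly above the upper line while many heat shock proteins lie below the lower one.

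Markers of the parts of the silique were read first. The embryo markers, 35 transcripts for LEC1, FUS3, WRI1, cruciferins, napins and oleosins, summed to 160 FPKM at 20 DAP, 221 FPKM at 25 DAP and 1722 FPKM at 30 DAP. Of these 35, 18 were at least 4-fold higher at 30 DAP and none was 4-fold lower, and 2 napin isoforms made up most of the sum at 30 DAP. The 6 seed coat markers summed to 139, 201 and 227 FPKM, and 4 of them were at least 4-fold higher. Those 4 included transcripts of the TT10b laccase. Nearly all of the sums at 20 and 25 DAP came from a TT10a laccase and TT2, given below with the tannin genes, and neither passed 4-fold. The 8 markers of the green silique wall, for light-harvesting proteins, rubisco and NST1, summed to 103, 58.4 and 79.8 FPKM, with none past 4-fold. The 5 endosperm markers were low throughout, at sums of 3.17, 7.24 and 5.07 FPKM, and the 3 AGL62 transcripts among them were listed at 0 at 30 DAP. The 3 pollen markers summed to 18.8, 9.57 and 0.48 FPKM, nearly all of it from a pollen coat protein-like transcript (c31955_g1_i1). That transcript was at 3.06 FPKM at 5 DAP and 91.85 FPKM at 15 DAP in the controls, so it was higher well after pollination than soon after it. In whole siliques, fewer cells of a type and less RNA per cell cannot be told apart, and this holds for every difference below.

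The storage proteins gave the largest single change. Napins are 2S albumins that store nitrogen and sulphur in the seed. The napin-B transcript c62438_g1_i2 was at 0.11 FPKM at 20 DAP, 0.46 FPKM at 25 DAP and 605.71 FPKM at 30 DAP, a log2 difference of 8.90 against a gap of 0.40 between the earlier controls. It had not passed 2.42 FPKM in any control library before. A second isoform of the unigene (c62438_g1_i1) was at 1.91, 5.47 and 421.96 FPKM, a difference of 6.61. A napin precursor of another unigene (c129942_g1_i1) was at 0 at both earlier stages and at 24.49 FPKM at 30 DAP. The cruciferins, which are 12S globulins, remained far weaker. Cruciferin BnC1 (c55351_g1_i4) was at 0, 0.03 and 5.50 FPKM, a further cruciferin (c15117_g1_i1) at 0, 0 and 4.55 FPKM, and the CRU1 transcript c55157_g1_i1 at 1.0, 1.12 and 4.38 FPKM. Not every napin followed, since the partial napin 1.7S (c42453_g1_i1) was at 6.48, 10.74 and 13.48 FPKM. A cupin family protein (c70843_g4_i1), of the fold that the globulins share, went from 1.13 and 3.52 FPKM to 64.62 FPKM. Over the list of 37 storage protein transcripts, which also takes in lipid transfer proteins of the same family, 9 were at least 4-fold higher and 1 was lower, against 4.60% and 4.08% of all transcripts, and the list median was 0.11. Isoforms and near-identical copies of napin and cruciferin share reads, so the split between them is uncertain.

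Oil body proteins moved most evenly as a group. Of 22 transcripts, 13 from 9 unigenes were at least 4-fold higher (59.1%, against 4.60% of all), and the list median was 2.31. All 13 were oleosins, the proteins that coat oil bodies and keep them apart. Oleosin S3-2 (c66737_g4_i2) was at 2.12 FPKM at 20 DAP, 5.37 FPKM at 25 DAP and 58.93 FPKM at 30 DAP, a difference of 3.75. Oleosin S3-4 (c74884_g1_i1) was at 1.15, 5.72 and 27.42 FPKM. These transcripts were already higher at 25 than at 20 DAP. Oleosin S2-1 (c88679_g1_i1) was instead at 0.07, 0 and 19.16 FPKM, and an oleosin-like protein (c58713_g1_i1) at 0.16, 0.28 and 21.77 FPKM, so both appeared at 30 DAP. The lone member that was 4-fold lower was no oleosin but 3-beta-hydroxysteroid dehydrogenase 2 (c57784_g1_i1), at 11.10, 7.29 and 0 FPKM.

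Enzymes that make and extend fatty acids were higher in some branches only. FAE1 is the elongase that makes the very long erucic acid of mustard oil, and FAE1.1 (c66554_g1_i1) was at 0.03, 0.12 and 47.20 FPKM, a difference of 5.49. The biotin-containing subunit of acetyl-CoA carboxylase, which takes the first step of fatty acid synthesis in the plastid, gave 4 isoforms past 4-fold. Of these, c60381_g1_i4 was at 2.44, 3.53 and 23.27 FPKM. In all, 13 of 44 transcripts of the list were at least 4-fold higher (29.5%, against 4.60% of all), from 6 unigenes. At least 4-fold lower were 3 (6.8%, against 4.08% of all), among them 3-ketoacyl-CoA synthase 12. The higher ones included isoforms of a ketoacyl-CoA synthase (KCS19). They also included 3 sterol desaturases, taken in by the words of the list, which act on sterols and not on fatty acids. Of these, c53151_g1_i1 was at 0.07, 0.13 and 16.81 FPKM. The list median was 0.07, with members from -2.38 to 5.49.

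The regulators of filling differed less than the reserves did. LEC1-1 (c66162_g1_i1), a subunit of the NF-Y transcription factor that starts embryo maturation, was at 1.25 FPKM at 15 DAP, 48.95 FPKM at 20 DAP, 55.18 FPKM at 25 DAP and 127.91 FPKM at 30 DAP. FUS3 (c68341_g2_i1) was at 1.78, 2.47 and 6.56 FPKM at 20, 25 and 30 DAP. WRI1, which acts on the genes of fatty acid synthesis, was at 21.88, 32.65 and 51.38 FPKM for c70900_g1_i4. The differences of LEC1-1, FUS3 and this WRI1 transcript were 1.28, 1.28 and 0.92, all below 4-fold. Of the 15 transcripts of this list, 2 were at least 4-fold higher (13.3%, against 4.60% of all), both with the best hit "downstream target of AGL15 2". The stronger of them (c71878_g1_i2) was at 2.76, 4.62 and 39.67 FPKM. The list median was 0.88.

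Desiccation genes gave counts near those of all transcripts. Of 18 transcripts for LEA proteins and dehydrins, which protect drying cells, 1 was 4-fold higher and none was lower, with a median of -0.01, against 4.60% and 4.08% of all transcripts. The higher one, a LEA domain protein (c59039_g1_i2), was at 0.72, 0.86 and 11.12 FPKM. The dehydrin c56112_g1_i2 was instead at 99.99, 119.57 and 44.26 FPKM, with its lowest level at 30 DAP. None of the 33 transcripts of abscisic acid synthesis and signalling and none of the 7 of dormancy and desiccation passed 4-fold in either direction, and counts this small are close to what those shares give. In the cold-treated siliques limma called 2 transcripts of the LEA list and 2 of the abscisic acid list higher and none lower. Of all transcripts it called 6.85% higher and 3.31% lower, and at those shares lists of this size would hold few calls. The abscisic acid 8'-hydroxylase c68153_g1_i2, an enzyme that breaks the hormone down, was at 9.69, 52.79 and 5.79 FPKM, so its 25 DAP value stood alone.

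**Figure D2:**
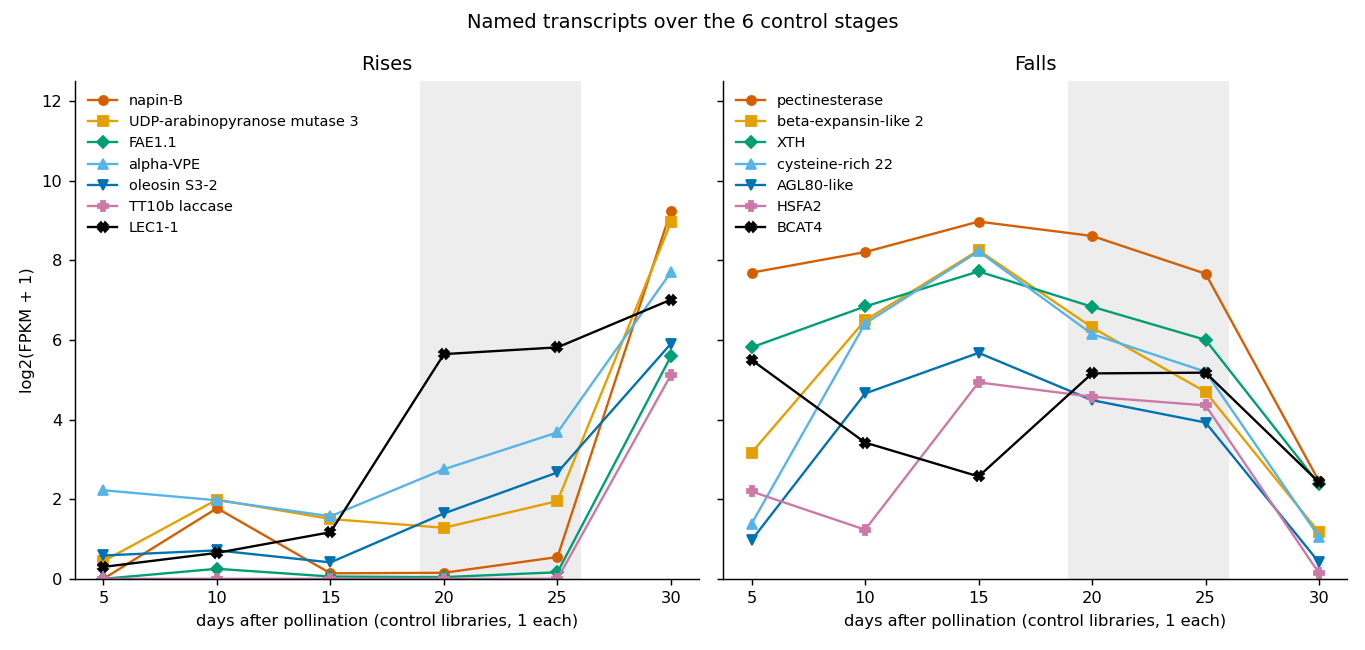
The y axis is log2(FPKM + 1), a log scale, and the x axis the 6 control stages in days after pollination, 1 library a point, with 20 to 25 DAP shaded. On the left napin-B, FAE1.1 and the TT10b laccase stay below 1 FPKM at 20 and 25 DAP and stand up at 30 DAP only, while LEC1-1 is already high at 20 DAP. On the right most transcripts peak at 15 DAP and are lowest or nearly so at 30 DAP.

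Among the 15 largest increases, sugar and wall enzymes stood beside the seed reserves. With a hypothetical best hit, and seen after its values were ranked, c54699_g1_i1 was at 1.59, 3.57 and 611.87 FPKM. UDP-arabinopyranose mutases, also called reversibly glycosylated polypeptides, turn the arabinose precursor into the ring form used in wall polymers. UDP-arabinopyranose mutase 3 (c63810_g1_i2) was at 1.43 FPKM at 20 DAP, 2.87 FPKM at 25 DAP and 495.08 FPKM at 30 DAP, a difference of 7.34. A transcript named alpha-1,4-glucan-protein synthase (c66647_g1_i4) was at 0.53, 1.63 and 237.63 FPKM, and a reversibly glycosylatable polypeptide (c61228_g2_i1) at 4.43, 18.17 and 449.62 FPKM. The last of these was already higher at 25 than at 20 DAP, by 1.82 on the log2 scale. The extensin-like protein EPR1 (c61485_g3_i2), known from the endosperm of germinating Arabidopsis seeds, was at 0, 0.20 and 66.14 FPKM. Core-2/I-branching glycosyltransferases, with 7 of 17 transcripts at least 4-fold higher (41.2%, against 4.60% of all), included c66640_g2_i1 at 0.29, 0.60 and 34.95 FPKM. Transcripts with a nucleotide-diphospho-sugar transferase domain showed 7 of 16 at least 4-fold higher (43.8%). Both domain groups were picked after their values had been seen, so their counts are a description only.

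Seed coat genes of tannin chemistry were mixed. TT10 is the laccase that oxidises and browns the tannins of the Arabidopsis seed coat. The BnaA.TT10b isoform c43559_g1_i2 was at 0 FPKM in all 5 earlier control libraries and at 33.83 FPKM at 30 DAP, and c49338_g1_i1 was at 0.08, 0.69 and 16.26 FPKM. The laccase transcript with the best hit BnaC.TT10a (c62649_g1_i1), far stronger at the earlier stages, was at 111.45, 160.50 and 141.06 FPKM, a difference of 0.08. TT2, a regulator of tannin synthesis (c59363_g1_i1), was at 27.43, 38.37 and 8.98 FPKM, a difference of -1.75. Chalcone synthase, the entry enzyme of flavonoid synthesis, was at 4.48, 10.19 and 44.50 FPKM for c72043_g5_i1 and at 5.81, 10.80 and 47.74 FPKM for c72043_g2_i1. Of 30 flavonoid transcripts 5 were at least 4-fold higher (16.7%, against 4.60% of all) and none was lower, and the list median was -0.17. These 5 were chalcone synthases and flavonol synthases. The subtilisin-like protease SBT1.1 (c68668_g2_i1) was at 9.35, 11.21 and 63.32 FPKM.

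Proteases were higher more often than all transcripts, while the lists that hold carriers stood near the share of all transcripts. Vacuolar processing enzymes cut storage proteins and other vacuolar proteins after asparagine. Alpha-VPE (c64073_g1_i1) was at 5.73, 11.79 and 207.20 FPKM, a difference of 4.49, and beta-VPE (c61807_g1_i3) at 2.95, 3.77 and 15.94 FPKM, a difference of 1.96. The KDEL-tailed cysteine endopeptidase CEP2 (c63027_g2_i1), of a family found in dying cells, was at 1.32, 2.79 and 27.87 FPKM. Of 107 protease transcripts 17 were at least 4-fold higher (15.9%, against 4.60% of all) and 1 was lower. The strongest protease of the siliques behaved otherwise. A senescence-specific cysteine protease (c65057_g1_i1) was at 10268.87, 13854.82 and 4162.01 FPKM, below 4-fold, and in the 30 DAP siliques after 6 h and 12 h it was at 10609.99 and 13061.3 FPKM. Carriers of the nodulin MtN3 (SWEET) family, which let sugars out of cells, included c62034_g1_i1 at 7.76, 27.47 and 119.05 FPKM and c37838_g1_i1 at 0.79, 2.03 and 20.13 FPKM. The MtN21 transporter c71485_g1_i1 was at 2.77, 6.49 and 59.95 FPKM. These carriers belong to lists with a share of increases close to that of all transcripts. The list of sucrose and sugar transport had 4 of 69 higher (5.8%) and 6 lower (8.7%) with a median of 0.00. Its lower members included invertase and pectin methylesterase inhibitors, which are no carriers. The list of nutrient carriers had 4 of 89 higher (4.5%) and none lower with a median of 0.50. The annotation term for sucrose transmembrane transporter activity, picked after its values were seen, had 5 of 16 transcripts higher (31.2%) and none lower, with a median of 1.16.

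**Figure D3:**
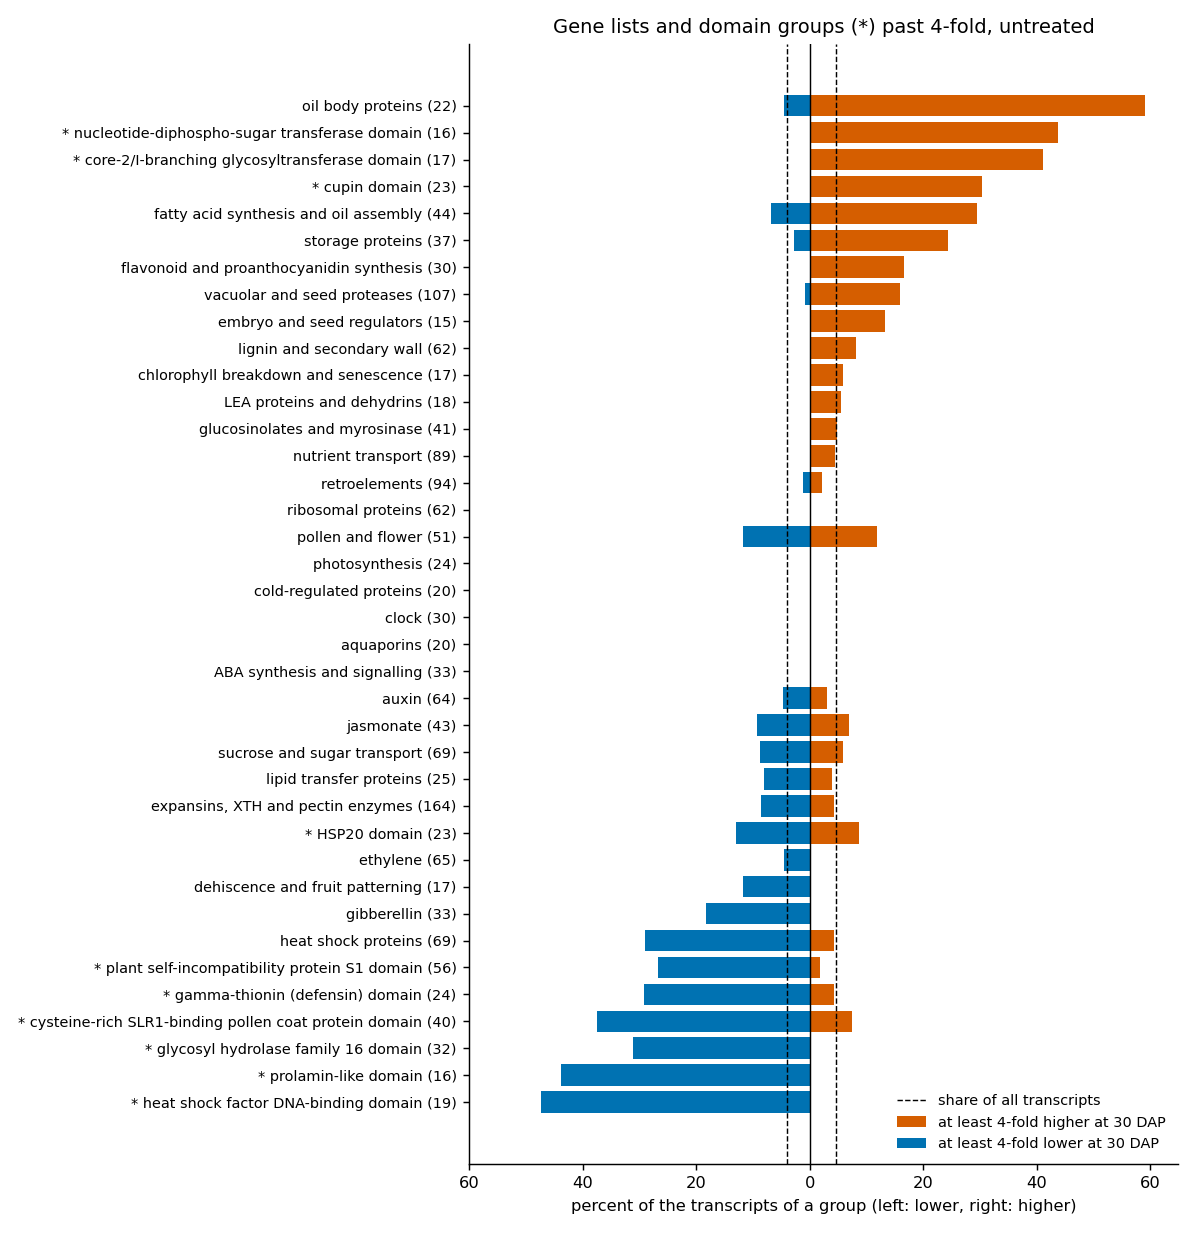
Bars give, for each gene list and each domain group (marked by a star) with at least 15 transcripts, the percent of its transcripts at least 4-fold higher (right) or lower (left) at 30 DAP in the controls, with the number of transcripts in brackets. Dashed lines are the shares of all transcripts, 4.60% and 4.08%. Oil body proteins reach 59.1% on the right and the heat shock factor domain 47.4% on the left, while ribosomal, clock and photosynthesis lists have none past 4-fold.

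Among the decreases were several enzymes that loosen and reshape the cell wall. A pectinesterase (c67212_g1_i1), which strips methyl groups from pectin, was at 389.56 FPKM at 20 DAP, 201.41 FPKM at 25 DAP and 4.45 FPKM at 30 DAP, a difference of -5.69, the largest decrease among transcripts with a named best hit. Beyond it lay 2 transcripts with hypothetical best hits, seen after their values were ranked. Of these c101009_g1_i1 was at 182.83, 322.66 and 0.27 FPKM and c57974_g1_i2 at 741.0, 713.86 and 10.59 FPKM. Beta-expansin-like protein 2 (c55105_g1_i1) was at 78.45, 24.87 and 1.24 FPKM. Xyloglucan endotransglucosylases cut and rejoin the xyloglucan that ties cellulose fibres. One of them (c63360_g1_i1) was at 65.82, 47.78 and 1.32 FPKM and another (c63582_g2_i1) at 112.95, 62.99 and 4.18 FPKM. Of the 32 transcripts with their catalytic domain (glycosyl hydrolase family 16, a group picked after its values were seen) 10 were at least 4-fold lower and none was higher, with a median of -1.27. The wider list of 164 expansins, xyloglucan and pectin enzymes had 14 lower (8.5%) and 7 higher (4.3%), with a median of -0.04. Of all transcripts 4.08% were lower and 4.60% higher, so its share of increases was near that of all. Peroxidase 52 (c66922_g1_i1) was at 86.19, 18.30 and 0.94 FPKM, with a gap of -2.18 between the earlier controls.

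Small cysteine-rich peptides were lower more often than higher. Peptides of these families are secreted and are known in plants as defensins and as signals between pollen, ovule and seed tissues. Cysteine-rich protein 18 (c129237_g1_i1) was at 75.27, 41.08 and 1.03 FPKM, low-molecular-weight cysteine-rich 22 (c37776_g1_i1) at 69.76, 35.74 and 1.07 FPKM, and defensin-like protein 271 (c53985_g1_i3) at 42.33, 34.04 and 1.47 FPKM. The first had stood at 367.85 FPKM at 15 DAP and the second at 297.94 FPKM. By domain, 15 of 40 transcripts with the SLR1-binding pollen coat domain, 15 of 56 with the self-incompatibility S1 domain, 7 of 24 with the gamma-thionin domain and 7 of 16 with the prolamin-like domain were at least 4-fold lower. These were 37.5%, 26.8%, 29.2% and 43.8% of the 4 groups, against 4.08% of all transcripts. At least 4-fold higher were 3, 1, 1 and 0 of them, or 7.5%, 1.8%, 4.2% and 0.0%, against 4.60% of all. These domains too were picked after their values were seen. Seed specific protein Bn15D33A (c57849_g1_i1) was at 62.86, 53.46 and 1.73 FPKM, and beta-1,3-glucanase bg4 (c100667_g1_i1) at 47.19, 11.19 and 0.03 FPKM. AGL80-like (c66906_g1_i2), related to the central cell and endosperm factor AGL80 of Arabidopsis, was at 21.40, 14.18 and 0.33 FPKM, and AGL91 (c41236_g1_i1) at 18.90, 17.03 and 0.55 FPKM. These were the 2 of 17 transcripts past 4-fold in the list of dehiscence and fruit patterning, which here holds mainly AGAMOUS-like factors.

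Of the hormone lists, that of gibberellin stood out on the lower side in the controls. Gibberellin-regulated protein 12 (c53497_g1_i1) was at 195.29, 148.42 and 14.77 FPKM and a GAST1 homolog (c61625_g1_i3) at 27.26, 18.83 and 1.33 FPKM. Both are small proteins of the family that responds to gibberellin. Of the 33 transcripts of the whole gibberellin list, 6 from 3 unigenes were at least 4-fold lower (18.2%, against 4.08% of all). None was 4-fold higher, and the list median was -0.24. In the cold-treated siliques limma called 3 of the 33 lower and 2 higher, against 3.31% and 6.85% of all. Of the 6 lower in the controls it called 1 lower, and the list median there was 0.06. The auxin-responsive repressor IAA19 (c66607_g1_i1) was at 18.00, 21.11 and 2.73 FPKM, while auxin response factor 18-1 (c67477_g1_i3) was at 1.1, 2.74 and 11.75 FPKM. The auxin list had 3 of 64 lower and 2 higher, shares close to those of all transcripts.

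Heat shock genes were lower in the 30 DAP control. HSFA2 (c46150_g1_i1), a factor that sustains the heat response, was at 22.78, 19.46 and 0.10 FPKM, a difference of -4.33. Heat shock protein 70 was at 84.54, 24.77 and 3.81 FPKM for c68640_g7_i1 and at 14.19, 9.03 and 0.39 FPKM for c63723_g1_i4. Of 69 heat shock transcripts 20 were at least 4-fold lower and 3 were higher, with a median of -0.52, and the 19 transcripts with the DNA-binding domain of heat shock factors had 9 lower and none higher. HSP22 (c49243_g2_i1) went the other way, at 0.39, 1.09 and 26.70 FPKM. In the cold-treated siliques these genes were low at the earlier stages too. Over the 20 lower transcripts the median level was 12.86 FPKM at 20 DAP, 9.68 FPKM at 25 DAP and 0.52 FPKM at 30 DAP in the controls. After 6 h it was 1.85, 4.64 and 5.64 FPKM at the same stages, and after 12 h it was 1.21, 1.37 and 2.64 FPKM. The part of air temperature and of the hour of harvest in the control levels was not tested.

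A set of 4 transcripts, most of them named for glucosinolate genes, moved together between stages and durations. They were noticed through the terms for branched amino acid synthesis and named after their values were seen. BCAT4, IPMI2 and IPMDH1 lengthen methionine on the way to aliphatic glucosinolates in Arabidopsis. Branched-chain aminotransferase 4 (c39511_g1_i1) was at 34.70, 35.17 and 4.35 FPKM, isopropylmalate isomerase 2 (c55451_g1_i1) at 51.45, 50.34 and 11.50 FPKM, isopropylmalate dehydrogenase 1 (c86933_g1_i1) at 18.22, 19.11 and 2.17 FPKM, and a 2-isopropylmalate synthase (c65472_g1_i1) at 13.34, 18.47 and 1.90 FPKM. All 4 differed by less than 2-fold between 20 and 25 DAP and were lower at 30 DAP. The name of the synthase alone does not place it among the glucosinolate genes. The wider list of glucosinolates and myrosinase, which does not hold these 4, did not fall with them. It had 2 of 41 transcripts at least 4-fold higher (4.9%, against 4.60% of all) and none lower, with a median of -0.11. In the cold-treated libraries BCAT4 was at 6.18, 31.21 and 28.64 FPKM after 6 h and at 12.24, 2.44 and 29.10 FPKM after 12 h, so its order of stages was another one there.

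A few transcripts differed more between the 20 and 25 DAP controls than between 25 and 30 DAP, so their difference mostly sets 20 DAP apart. Lipoxygenase 2 (c72135_g1_i3), of jasmonate synthesis, was at 0.84 FPKM at 20 DAP, 237.42 FPKM at 25 DAP and 310.67 FPKM at 30 DAP, but at 142.41 FPKM at 15 DAP and at 2.53 FPKM in the 30 DAP siliques after 12 h. The Kunitz-type inhibitor c58410_g1_i1 was at 0.60, 660.88 and 786.66 FPKM and at 2.71 FPKM in that cold-treated 30 DAP library. Another Kunitz domain protein (c62966_g1_i1), among the strongest transcripts at 30 DAP, was at 30.49, 2088.66 and 3022.76 FPKM. A myrosinase binding protein (c60519_g2_i1) was at 0.12, 26.57 and 44.45 FPKM and at 0.33 FPKM in the 30 DAP siliques after 12 h. The Kunitz inhibitor is the one member of the 15 largest increases with such a gap, of 8.69 on the log2 scale, and the next largest gap among the 15 was 1.82.

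By construction the sets are those in which 30 DAP departs from both earlier controls, so their course is given as a description. Of the 614 higher transcripts 489 differed by less than 2-fold between 20 and 25 DAP, 120 were already higher by more at 25 DAP and 5 were lower, and 610 had their highest control level at 30 DAP. The 256 of them under 1 FPKM at both earlier stages could not differ by 2-fold on this scale. Of the 544 lower transcripts 445 differed by less than 2-fold between 20 and 25 DAP, 70 were already lower by more at 25 DAP and 29 were higher. Their highest control library was 15 DAP for 245, 20 DAP for 117, 25 DAP for 109, 5 DAP for 39 and 10 DAP for 34. The median level of the higher set was 0.54 FPKM at 20 DAP, 1.41 FPKM at 25 DAP and 15.6 FPKM at 30 DAP, and that of the lower set 14.1, 11.5 and 0.82 FPKM. At 0 FPKM at 30 DAP were 74 of the lower transcripts, and at 0 FPKM at both earlier stages 47 of the higher ones.

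**Figure D4:**
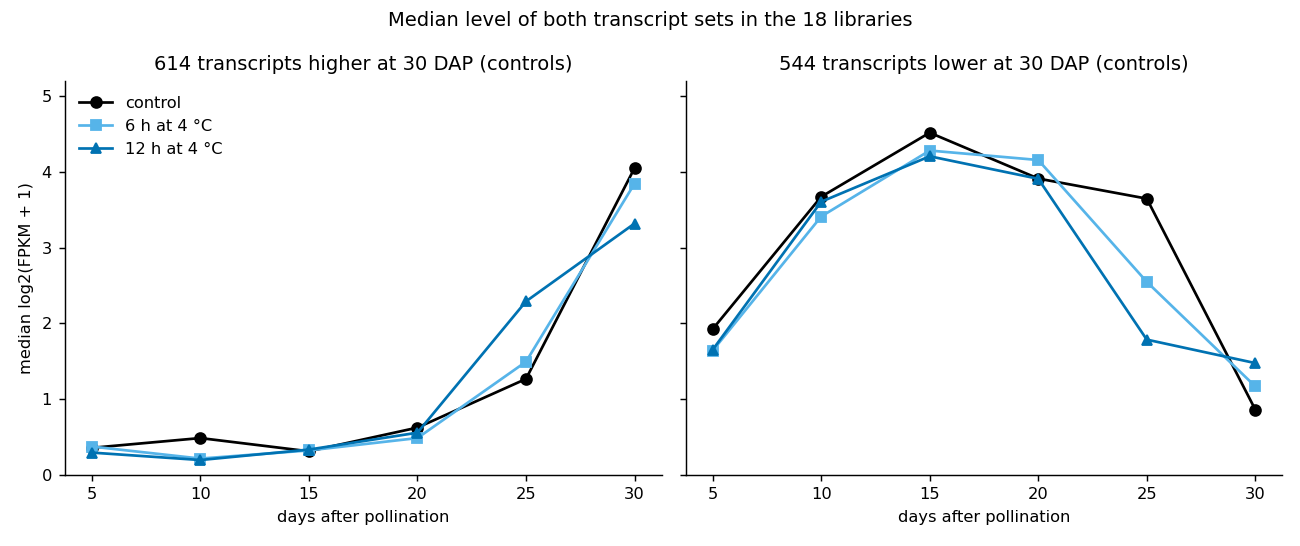
The y axis is the median log2(FPKM + 1), a log scale, of the 614 higher (left) and the 544 lower transcripts (right) in each of the 18 libraries, by stage on the x axis and by treatment in colour. The 20, 25 and 30 DAP controls chose the sets, so their points are a description. The cold-treated libraries of 25 DAP lie between the 25 DAP and 30 DAP controls, more so after 12 h than after 6 h.

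The 6 cold-treated libraries were not used to choose the 614 and 544 transcripts, although they were among the libraries whose comparisons by the authors decided which transcripts the table holds. Of the 614 higher transcripts 597 were higher at 30 DAP after 6 h and 537 after 12 h, with 535 in both. Of the 544 lower transcripts 480 were lower after 6 h and 484 after 12 h, with 466 in both. Over all transcripts 39.5% were higher and 36.9% lower after both durations. A limma fit over these 6 libraries, with 6 h and 12 h as the 2 samples of a stage, called 914 transcripts higher (6.85%) and 442 lower (3.31%) at a Benjamini-Hochberg adjusted p under 0.05. Called higher were 329 of the 614 higher transcripts (53.6%), and called lower were 166 of the 544 lower ones (30.5%). One transcript of the lower set was called higher and none of the higher set was called lower, where 4708 transcripts had an unadjusted p under 0.05. These calls stood at the edge of the threshold, with limma adjusted p-values from 0.0485 upwards. When any 1 of the 6 libraries was left out, limma called none, and the lowest adjusted p then ranged from 0.0879 without the 25 DAP library of 12 h to 0.385 without the 30 DAP library of 6 h. The median ratio scaling (lowest adjusted p 0.0505) and a pseudocount of 0.1 (0.0508) also left no limma calls.

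Of the 15 largest increases 11 were called in the cold-treated siliques, and of the 15 largest decreases 9. Napin-B was at 0.33 FPKM at 20 DAP, 1.54 FPKM at 25 DAP and 300.95 FPKM at 30 DAP after 6 h, and at 0.19, 16.13 and 137.46 FPKM after 12 h, a limma difference of 6.15 ± 0.93 (SE, adjusted p = 0.0485). UDP-arabinopyranose mutase 3 was at 0.60, 4.86 and 473.52 FPKM after 6 h and at 0.51, 35.26 and 221.19 FPKM after 12 h. For both, the 30 DAP libraries lay above all 4 earlier ones. FAE1.1 was at 0.02, 0.42 and 30.69 FPKM after 6 h and at 0.02, 2.54 and 13.79 FPKM after 12 h, a limma difference of 3.84 ± 0.59 (SE, adjusted p = 0.0485). LEC1-1, below 4-fold in the controls, gave a limma difference of 1.73 ± 0.22 (SE, adjusted p = 0.0485). Over the lists, limma called 12 of 22 oil body and 7 of 37 storage protein transcripts higher in the cold-treated siliques. It also called 12 of 44 fatty acid and 18 of 107 protease transcripts higher. The share of all transcripts called higher was 6.85%. Called lower were 1 oil body and 5 protease transcripts and none of the storage protein and fatty acid lists, against 3.31% of all. The pectinesterase was at 430.20, 49.47 and 8.07 FPKM after 6 h and at 314.17, 27.35 and 10.87 FPKM after 12 h, a limma difference of -3.51 ± 0.33 (SE, adjusted p = 0.0485). Cysteine-rich protein 18 was at 203.87, 5.8 and 0.40 FPKM after 6 h and at 154.49, 1.47 and 1.84 FPKM after 12 h, so its 25 DAP level was already low in both.

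Other decreases of the controls had few or no calls after cold. HSFA2 had a limma difference of -0.41 ± 0.48 (SE, adjusted p = 0.595) and heat shock protein 70 c68640_g7_i1 one of 0.79 ± 0.25 (SE, adjusted p = 0.120), and none of the 20 lower heat shock transcripts was called lower by limma. Of the 10 lower transcripts with the glycosyl hydrolase family 16 domain 1 was called. Their median was 27.2, 48.3 and 3.28 FPKM in the controls, 10.9, 20.9 and 12.0 FPKM after 6 h and 13.9, 12.0 and 8.82 FPKM after 12 h, so the earlier stages were lower and 30 DAP higher than in the controls. The difference between untreated and cold-treated siliques in this step was not tested.

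The lower transcripts were already lower in the 25 DAP siliques after cold, and the higher ones partly higher after 12 h. At least 2-fold below the 25 DAP control were 301 of the 544 lower transcripts after 6 h (55.3%) and 476 after 12 h (87.5%), against 11.5% and 14.0% of all transcripts, while 2 and none were at least 2-fold above it. At 20 DAP after 6 h, 85 of the 544 were at least 2-fold below their control (15.6%, against 7.8% of all transcripts). At least 2-fold above it were 96 (17.6%, against 10.6% of all). At 20 DAP after 12 h, 86 were at least 2-fold below their control (15.8%, also more than the share of all transcripts). The 57 at least 2-fold above it were a share close to the 9.6% of all. Of the 614 higher transcripts 254 were at least 2-fold above the 25 DAP control after 12 h (41.4%, against 12.6% of all) and 26 at least 2-fold below it. After 6 h only 44 were above it (7.2%, under the 9.1% of all transcripts) and 18 below it. The 25 DAP control enters both the choice of these sets and this count. With 1 library for each stage and duration, an effect of cold at 25 DAP and a difference in age or tissue between these siliques cannot be told apart.

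**Figure D5:**
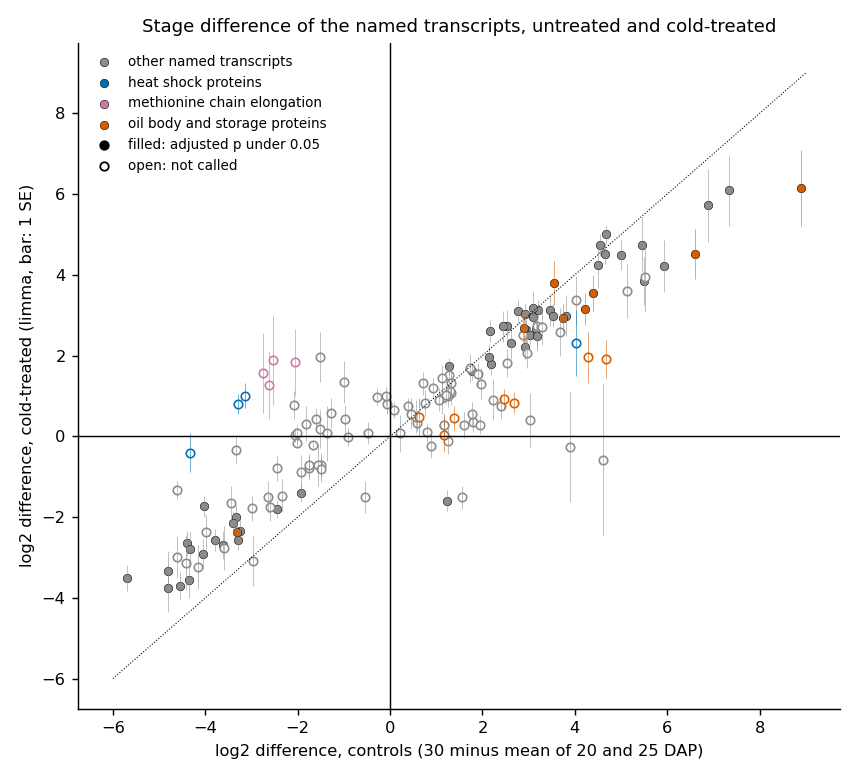
Each point is 1 named transcript, with its log2 difference in the controls on the x axis and its limma log2 difference in the cold-treated libraries on the y axis (bars, 1 SE, with 2 samples a stage). Filled points have an adjusted p under 0.05, and the dotted line marks equal differences. Storage proteins and oleosins lie in the upper right. Above 0 on the y axis, with a negative difference on the x axis, lie 2 heat shock protein 70 transcripts. The 4 transcripts that the figure marks as methionine chain elongation, among them the 2-isopropylmalate synthase, lie there too.

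Several lists had no member past 4-fold, namely none of the 62 ribosomal, 30 clock, 24 photosynthesis, 20 cold-regulated or 20 aquaporin transcripts, in either direction. Differences within these lists ran from -1.57 to 1.29 for ribosomal proteins and from -1.52 to 1.95 for cold-regulated proteins. At the shares of all transcripts, lists of this size would hold few such members. The photosynthesis list had a median of 0.48 and the aquaporins one of 0.44, both above that of all transcripts, and the median gap of the photosynthesis list from 20 to 25 DAP was -0.51. The chloroplast carbonic anhydrase c53607_g1_i1, which turns over carbon dioxide and bicarbonate, was at 49.88, 20.74 and 77.78 FPKM. In the cold-treated siliques its 30 DAP levels were the lowest instead, at 30.04, 73.39 and 14.50 FPKM after 6 h and at 23.92, 31.36 and 8.52 FPKM after 12 h, a limma difference of -1.60 ± 0.26 (SE, adjusted p = 0.0495). Retroelements had 2 of 94 higher (2.1%, against 4.60% of all) and 1 lower (1.1%, against 4.08%). One of these, a transcript with a reverse transcriptase domain (c55557_g1_i1), was at 0 FPKM at 20 and 25 DAP and at 31.06 FPKM at 30 DAP, and at 33.98 and 14.35 FPKM in the 30 DAP siliques after 6 h and 12 h.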

How the data were processed

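Total RNA of whole siliques was sequenced as paired ends on the HiSeq platform. The authors filtered the reads, assembled them with Trinity, mapped them with Bowtie2 and estimated abundance with RSEM, and the deposited values are TMM-normalized FPKM with 2 decimals for transcripts called by their edgeR step. No source used here states their versions. The deposited annotation (sequence length and other columns) gave a best hit for 11230 of the 13342 transcripts, 5109 of them with a usable name.

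Groups came from the sample labels. Values were taken to log2(FPKM + 1). The untreated contrast of 1 library against 2 was described by a 4-fold threshold. The 6 cold-treated libraries were fitted with limma 3.58.1 in R 4.3.3 (stage, with duration as a block, moderated with a trend, Benjamini-Hochberg over all transcripts). In this fit 6 h and 12 h served as samples of a stage. The block took up an effect of duration shared by the stages, so the residual spread behind the p-values also holds any effect of duration that differs between stages. The fit was tested on simulated data.

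Each gene list took the transcripts whose best hit held given words. The members and lists were chosen with earlier results of these data known. Named transcripts are actin 7, the 15 largest increases and 15 largest decreases past 4-fold (at least 5 FPKM, beyond both earlier controls, 1 per unigene and name), and up to 4 of each list with the largest difference and at least 5 FPKM. Others are named after their values were seen, among them further napins, cruciferins, WRI1, TT2, TT10 and the glucosinolate genes. The alternatives were a pseudocount of 0.1, a mean of at least 1 FPKM, median ratio scaling, isoforms summed per unigene, each library left out, other thresholds and other baselines. Reads were not reprocessed, and no reference genome was used.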

Additional observations from a re-analysis of the deposited data

Results flagged for a closer look

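For the 4 transcripts of the glucosinolate set described above, the untreated and the cold-treated libraries moved in opposite directions. The log2 difference between 30 DAP and the mean of 20 and 25 DAP was -2.05 in the controls for isopropylmalate isomerase 2 (c55451_g1_i1) and -2.53 for 2-isopropylmalate synthase (c65472_g1_i1), and at both cold durations it was positive by at least 1. The limma differences in the cold-treated libraries were 1.83 ± 0.84 (SE, adjusted p = 0.223) and 1.89 ± 1.11 (SE, adjusted p = 0.316). For isopropylmalate dehydrogenase 1 (c86933_g1_i1) and branched-chain aminotransferase 4 (c39511_g1_i1) the differences were -2.63 and -2.75 in the controls and 1.27 ± 0.84 (SE, adjusted p = 0.363) and 1.56 ± 0.99 (SE, adjusted p = 0.349) in the limma fit, also opposite in sign, but after 6 h they were positive by less than 1. The difference between untreated and cold-treated siliques was not tested. With 1 library a group, no sample could be compared with others of its group.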

How the results depend on the processing

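In the untreated siliques a pseudocount of 0.1 raised the counts past 4-fold to 1490 higher and 1595 lower, since weak transcripts then pass. A 2-fold threshold gave 2183 and 1776, and a 16-fold threshold 69 and 42. With 1 earlier control as the baseline the counts were 511 to 812 higher and 625 to 661 lower. The other alternatives kept both counts within 1.5 times. The median of the oil body list was 3.36 with a pseudocount of 0.1, and that of the heat shock list -0.95 with a pseudocount of 0.1 and -1.09 with such weak transcripts, under 1 FPKM on average, dropped. Of the 36 list medians, 17 moved by more than the SD of the list median over the earlier controls with a pseudocount of 0.1, 19 with weak transcripts dropped, 16 with isoforms summed, 6 with median ratio scaling, and 11 and 9 without the 20 and the 25 DAP control. Of 156 named differences 79 moved by more than their own SD over these controls with a pseudocount of 0.1. The vegetative storage protein c59938_g2_i1 turned to 0.73 when isoforms were summed. In the cold-treated siliques limma called 0 transcripts in both directions without any 1 of the 6 libraries, with a pseudocount of 0.1, with median ratio scaling and with 25 DAP alone as the baseline, where 1718 to 4805 transcripts had an unadjusted p under 0.05. It called 1525 higher and 720 lower where transcripts averaging below 1 FPKM were dropped, 536 and 271 unigenes, 1675 and 936 without the duration term, 2130 and 1217 over all 9 late libraries, and 1938 and 1353 with 20 DAP alone as the baseline. The self-incompatibility transcript c53048_g1_i1 was at 0.05 against 25 DAP alone. The calls in cold-treated siliques thus depend on these settings, and beyond fewer samples or genes the cause was not tested. No paired analysis was possible because the labels number no replicates, although duration served as a block in the cold-treated fit. The deposited table gives no read counts, so the counting error of weak FPKM values was not computed.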
